A study of Mus musculus with 4 samples.

Results

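The OGT peaks of mouse bone marrow derived macrophages are described here as a landscape: how wide and how strong they were, how far apart they lay, where they gathered, and which of them coincided with BAP1 or HCF1 peaks. All peaks of the OGT list on chromosomes 1 to 19 were taken, with no cut on score or width. That gave 10236 of the 10337 peaks in the list, and of the 59420 peaks in the 3 lists of the study. The 101 others lay on X, on Y or on sequences not placed in the assembly. The study mapped 3 chromatin proteins by chromatin immunoprecipitation and sequencing (ChIP-seq), in which DNA bound to a protein is pulled down with an antibody and peaks of sequenced fragments mark where it was bound. All groups were C57BL/6 mice, and all cells were primary macrophages grown from marrow in L929 conditioned medium with no further treatment. The OGT library (anti-OGT1 antibody), the HCF1 library (anti-HCF1) and the input library (no antibody) came from mice with unmodified BAP1, and the BAP1 library (anti-FLAG) from knock-in mice whose BAP1 carries a 3X Flag tag. The name of the deposited BAP1 list says wild type where the labels give the knock-in. The labels were followed, and if they were wrong the overlaps with BAP1 given below would not be overlaps with BAP1 sites. Each group is 1 library. The labels used here give neither the age, the sex nor the number of the mice, and no library from cells lacking OGT was analysed, so how much of the signal is specific to OGT was not tested.

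OGT is the only enzyme known to attach the sugar O-GlcNAc to serines and threonines of nuclear and cytoplasmic proteins, and a separate enzyme, OGA, removes it. OGT has no DNA-binding domain of its own and reaches chromatin through partners such as TET proteins and HCF1. HCF1 is a large cofactor that binds many promoters through transcription factors, and OGT both glycosylates and cleaves it. BAP1 removes ubiquitin from histone H2A and forms a complex with HCF1 and OGT. A ChIP peak of OGT therefore marks chromatin near which the enzyme was held, not a DNA motif that it reads.

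Each peak carries 1 deposited score, which ran from 50 to 3100 with a median of 86.6 (quartiles 62.0 and 143). The sources used here do not define it. Scores were compared within the list, and as 1 alternative a cut at 100 was applied to every list. Most OGT peaks were weak on this scale. A score of at least 100 was reached by 4252 peaks (41.5%), of at least 500 by 269 (2.63%) and of at least 1000 by 64 (0.625%). The read depth is unknown, so a missing peak does not show an unoccupied site. With 1 library there is no replicate error, and the 95% intervals below are exact binomial intervals for counting error over peaks. Neighbouring peaks are not independent, which these intervals do not allow for, and no p-values are given.

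Stronger OGT peaks were wider. The median width was 914 bp (quartiles 693 and 1296 bp), and 1 peak in the list was as narrow as 173 bp while the widest spanned 13081 bp. In the lowest decile of the score the median width was 601 bp (quartiles 481 and 771 bp), and in the highest it was 1828 bp (1293 and 2550 bp). The median was larger in each decile than in the one below it. Across the 10236 peaks, width and score had a Spearman rho of 0.65, a description over peaks that share 1 library. Within single chromosomes rho ran from 0.52 on chromosome 13 to 0.72 on chromosome 15. Read the other way, the 676 peaks under 500 bp had a median score of 54.6 and 98.4% of them scored below 100. The 5157 peaks of 500 to 999 bp, 50.4% of the list, had a median score of 72.4. The 207 peaks of 3000 to 4999 bp had a median of 355, and the 45 of 5000 bp or more a median of 594.

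**Figure D1:**
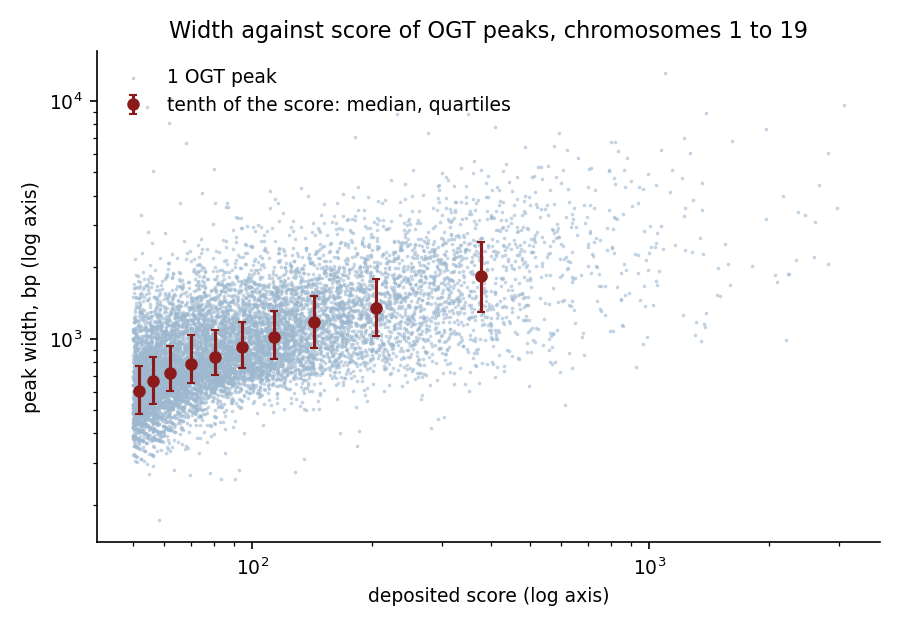
Width in bp against the deposited score, both on log axes, for the 10236 OGT peaks (1 light point each). Dark points give the median width in each decile of the score, placed at the decile's median score, with bars from the lower to the upper quartile. The medians climb from 601 to 1828 bp, and a few wide peaks lie far above them at low scores.

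Some peaks broke this relation in both directions. Of the 45 OGT peaks of 5000 bp or more, 6 scored below 100. The second widest peak of the list, on chromosome 12 from 27131576 to 27141754, was 10179 bp wide and scored 62.2. The fourth widest, on chromosome 11 from 3090847 to 3100266, was 9420 bp wide and scored 54.4. Both overlapped HCF1 but not BAP1. On chromosome 17 a peak from 26649083 to 26652390 was 3308 bp wide at a score of 52.3, and it lay 1.69 kb from its nearest OGT neighbour in a cluster of 4. The other 3 of the 5 weakest peaks of at least 2000 bp were on chromosome 1 from 178761525 to 178763680 (score 50.8), on chromosome 18 from 3004177 to 3006470 (52.8) and on chromosome 2 from 11422196 to 11425018 (54.8). All 5 overlapped HCF1, and 3 overlapped BAP1. Over all OGT peaks these shares were 82.2% for HCF1 and 66.3% for BAP1. Among solitary peaks of 1144 bp or more they were 96.4% and 77.9%, and among clustered ones 97.8% and 78.0%. The peaks on chromosomes 11 and 18 lay near the start of their chromosomes, where mouse chromosomes have their centromeres.

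Other OGT peaks were strong but compact. Among peaks under 1000 bp the highest score was 2214.82, in a peak of 993 bp on chromosome 12 from 75293228 to 75294220. It stood alone, 227 kb from the nearest other OGT peak, and overlapped HCF1 but not BAP1. The next, on chromosome 7 from 87975104 to 87976086, scored 1349.01 at a width of 983 bp and lay in a cluster of 3. The peak on chromosome 7 from 135604724 to 135605674 scored 966 at 951 bp. A peak of 761 bp on chromosome 13 from 101628692 to 101629452 scored 925 and was the only one of these 5 without HCF1, although BAP1 overlapped it. The last of the 5, on chromosome 7 from 30968769 to 30969622, scored 687 at 854 bp.

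The 3 remaining peaks among the 5 widest were strong as well as wide. The widest of all, on chromosome 19 from 5839200 to 5852280, scored 1093.41 and had another OGT peak 90 bp away. As general background on mm9, and not from an annotation used here, this stretch holds Neat1, the noncoding RNA that scaffolds nuclear paraspeckles. The peak on chromosome 7 from 29160175 to 29169807 was 9633 bp wide and had the highest score of the list, 3100. The peak on chromosome 8 from 87498108 to 87507014 was 8907 bp wide, scored 1390.21 and belonged to a cluster of 6. All 3 overlapped both HCF1 and BAP1, as did 62.5% of all OGT peaks.

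OGT peaks were spaced very unevenly. The 10217 gaps between neighbours, measured from the end of a peak to the start of the next, had a median of 30.2 kb (95% interval 28.5 to 31.8 kb). The lower quartile was 5.47 kb and the upper 126 kb. Among peaks with a score of at least 100 the median gap was 74.1 kb. Gaps of at most 1 kb made up 12.3% (11.7 to 13.0%), and gaps of at most 10 kb 32.3% (31.3 to 33.2%). At the other end, 575 gaps (5.63%) exceeded 1 Mb. The longest, 12.4 Mb, followed the peak on chromosome 4 from 19824961 to 19825734, and 21 HCF1 and 14 BAP1 peaks lay inside it. The next were 11.8 Mb on chromosome 14, with 6 HCF1 and 1 BAP1 peaks inside, and 11.4 Mb on chromosome 12, with 9 and 8.

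Many of the shortest gaps fell inside a single stretch of the other proteins. Of the 517 gaps of at most 200 bp, 395 (76.4%, 72.5 to 80.0%) were bridged by 1 HCF1 peak that reached both OGT neighbours, and 360 (69.6%, 65.5 to 73.6%) by 1 BAP1 peak. Of the 744 gaps from 201 bp to 1 kb, HCF1 bridged 51.5% (47.8 to 55.1%) and BAP1 43.8% (40.2 to 47.5%). From 1 to 10 kb the shares were 3.88% and 2.90% of 2034 gaps. A longer gap needs a wider peak to bridge it, so this order follows in part from length. Close neighbours were not alike in strength. The scores of 2 adjacent OGT peaks had a rho of 0.06 at gaps of at most 200 bp, 0.03 from 201 bp to 1 kb and 0.07 from 1 to 10 kb.

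**Figure D2:**
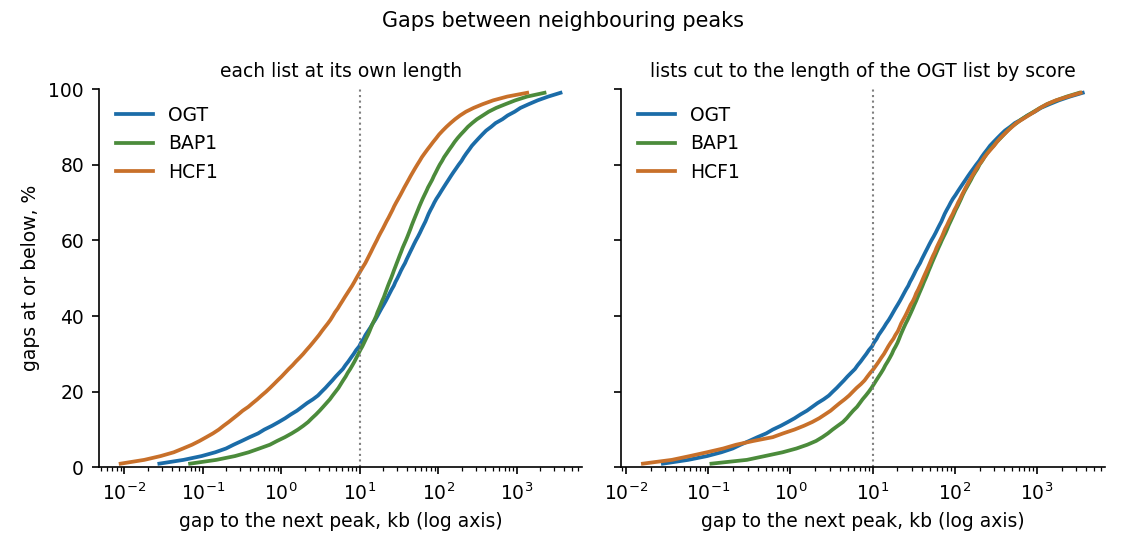
Cumulative share of gaps, in percent, against the gap to the next peak in kb (log axis), for the OGT, BAP1 and HCF1 lists on chromosomes 1 to 19. On the left each list has its own length and on the right each is limited to its 10236 highest-scoring peaks. The dotted line marks 10 kb, below which 32.3% of OGT gaps fall. HCF1 is highest there on the left and OGT on the right.

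Joining OGT peaks whose gaps were at most 10 kb put 5161 peaks, 50.4% (49.4 to 51.4%), into 1866 clusters, and left 5075 solitary. Most clusters were small. Pairs numbered 1168, groups of 3 numbered 378 and groups of 4 numbered 160. There were 150 clusters of 5 to 9 peaks and 10 of 10 or more. The 160 clusters of at least 5 peaks held 1051 peaks, occurred on all 19 chromosomes and had a median span of 22.5 kb (range 5.95 to 103 kb). Their number depended on the rules: it was 87 with a cluster distance of 5 kb, 324 with 20 kb, 65 after joining peaks at most 1 kb apart and 29 among peaks with a score of at least 100. Chromosome 11 had 23 of the 160 and chromosome 7 had 15, while chromosomes 12, 16 and 18 had 1 each. Scores varied within clusters. Over all 1866 clusters, mostly pairs, the highest score was a median of 2.13 times the lowest and 57.5% of the summed score. In the clusters of at least 5 these medians were 6.02 times and 35.1%, and 52 of the 160 contained a peak of at least 500. As peaks are added to a cluster the ratio cannot fall, and each added peak that is not the strongest lowers the share. The difference between the 2 sets of medians therefore follows in part from cluster size.

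Clustered OGT peaks were somewhat stronger and wider than solitary ones. Their median score was 92.7 (quartiles 64.0 and 163) against 81.5 (60.4 and 128), and their median width 997 bp (735 and 1446 bp) against 837 bp (661 and 1174 bp). The quartile ranges overlapped widely. The clustered median was the higher on 18 of 19 chromosomes for the score, with chromosome 18 the exception at 80.9 against 81.8, and on 19 of 19 for the width. In the lowest score decile 42.6% of peaks (39.5 to 45.7%) were clustered, and in the highest 64.4% (61.3 to 67.3%). The median distance to the nearest OGT peak was 15.3 kb in the lowest decile and 3.86 kb in the highest. Within 3 classes of equal size by width, the clustered and solitary median scores were 61.5 and 61.9 up to 755 bp, 88.1 and 90.3 from 756 to 1143 bp, and 165 and 141 from 1144 bp. In that widest class the clustered peaks were also wider, with a median of 1604 bp against 1457 bp, and differences between the classes were not tested.

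By an overlap of at least 1 bp, clustered OGT peaks coincided with the other proteins more often than solitary ones. HCF1 overlapped 87.1% (86.2 to 88.0%) of clustered and 77.2% (76.0 to 78.3%) of solitary peaks, and was higher for clustered peaks on 19 of 19 chromosomes. BAP1 overlapped 69.3% (68.0 to 70.5%) and 63.3% (61.9 to 64.6%), and was higher on 17 of 19. Peaks that met neither protein were 9.65% of clustered and 18.4% of solitary peaks. The HCF1 difference was 69.0% against 59.4% in the narrowest width class, 89.3% against 82.8% in the middle one and 97.8% against 96.4% in the widest. For BAP1 the same classes gave 54.1% against 50.6%, 71.3% against 66.6%, and 78.0% against 77.9%. With peaks over 5 kb left out of every list, the differences were 4.61 percentage points for HCF1 and 1.65 for BAP1, against 9.97 and 6.00 in all peaks. The BAP1 difference then had a normal-approximation interval of -0.22 to 3.51 that includes 0, and so did the 1.27 points found after joining peaks at most 1 kb apart (-0.74 to 3.29). A higher BAP1 share of clustered peaks is thus not kept under these rules. The direction depended on the overlap rule. With centres within 250 bp of each other the clustered share was the lower one, with a difference of -8.62 percentage points for HCF1 and -9.84 for BAP1, and it was lower with reciprocal overlap of at least 50% too.

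**Figure D3:**
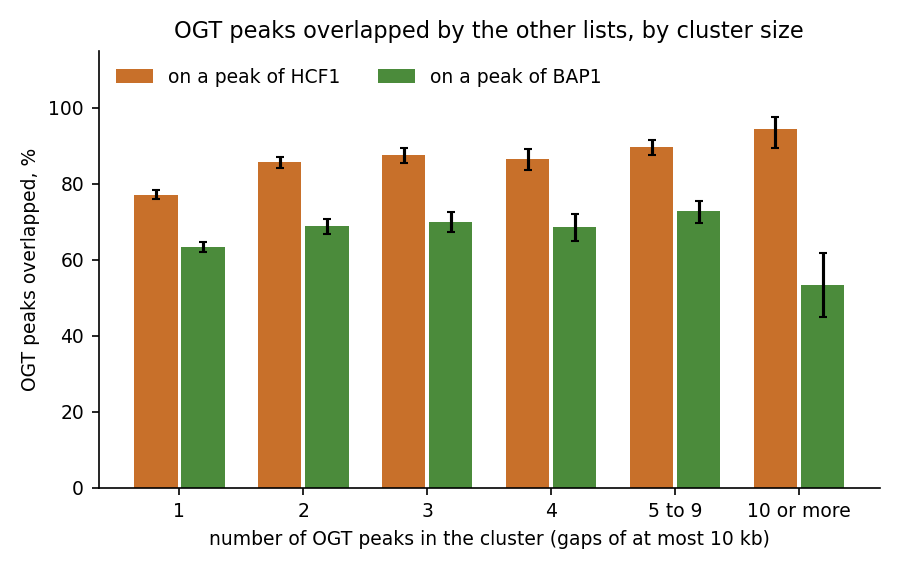
Share of OGT peaks, in percent, that overlap an HCF1 or a BAP1 peak by at least 1 bp, by the number of OGT peaks in their cluster (1 stands for solitary peaks). Bars are shares over peaks and error bars are exact 95% binomial intervals. The HCF1 share is lowest for solitary peaks at 77.2% and highest in clusters of 10 or more at 94.5%, while the BAP1 share is lowest in those clusters at 53.4%, a value that 1 cluster of 34 peaks sets.

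The largest OGT clusters differed in how many of their members met BAP1. In clusters of 5 to 9 peaks BAP1 overlapped 72.7% (69.7 to 75.6%) of OGT peaks and HCF1 89.7% (87.6 to 91.6%). In the 10 clusters of 10 or more, BAP1 overlapped 78 of 146 peaks, 53.4% (45.0 to 61.7%), and HCF1 138, 94.5% (89.5 to 97.6%). A single cluster made most of that difference, and without it BAP1 overlapped 67.0% (57.4 to 75.6%) of the 112 remaining peaks. Across the 160 clusters of at least 5 peaks, HCF1 overlapped each member in 88 and at least 1 member in all 160. BAP1 overlapped each member in 34, at most 25% of members in 13 and none in 1. These counts depend on the shares per peak and on cluster size, and no expected number was computed for them.

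The cluster with most OGT peaks lay on chromosome 11 from 119250774 to 119353982 and held 34 peaks over 103 kb. Its scores ran from 50.9 to 465 with a median of 84.7, and 21 of the 34 were below 100. The gaps between its members ran from 5 to 8662 bp with a median of 863 bp. HCF1 overlapped all 34, and BAP1 only 3: the first at a score of 260, the second at 465 and the last at 197. The 31 members between them had no BAP1 peak, including the one from 119300998 to 119305349, which was 4352 bp wide with a score of 184. In this span 45 HCF1 peaks covered 90.6% of the bases, the 34 OGT peaks 47.1% and the 3 BAP1 peaks 3.90%. OGT and HCF1 peaks ran along the whole stretch, and BAP1 peaks stood at its ends.

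The other large clusters showed the range between these patterns. On chromosome 11 from 70245180 to 70289914, 15 OGT peaks spanned 44.7 kb, and HCF1 and BAP1 each overlapped 14. A cluster of 14 on chromosome 10 from 127022761 to 127081853 had the second highest median score of the 10, 195, with 12 peaks on HCF1 and 11 on BAP1. On chromosome 7 from 132694498 to 132762138, HCF1 overlapped 13 and BAP1 5 of 14 peaks. On chromosome 13 from 56693224 to 56744781 the counts were 14 and 3 of 14, and HCF1 covered 70.2% of that span against 5.03% for BAP1. This is the closest in makeup to the cluster of 34.

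The 5 remaining clusters of this size had BAP1 on 70.0% or more of their members. Those on chromosome 17 from 34040001 to 34093146 and from 35301619 to 35357476 held 12 and 11 OGT peaks, of which BAP1 overlapped 9 in each. As general background on mm9 both lie in the major histocompatibility region, where the genes for antigen presentation are packed closely. The cluster from 34040001 had the highest median score of the 10, 212. On chromosome 6 from 122796592 to 122827535, 12 peaks spanned 30.9 kb, with 11 on HCF1 and 10 on BAP1, and the highest score was 280. The cluster of 10 on chromosome 10 from 79603068 to 79630745 was the shortest at 27.7 kb and contained the strongest member of any of these clusters, at 1164.58. The cluster of 10 on chromosome 9 from 65373181 to 65427895 had HCF1 on each member and BAP1 on 7.

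**Figure D4:**
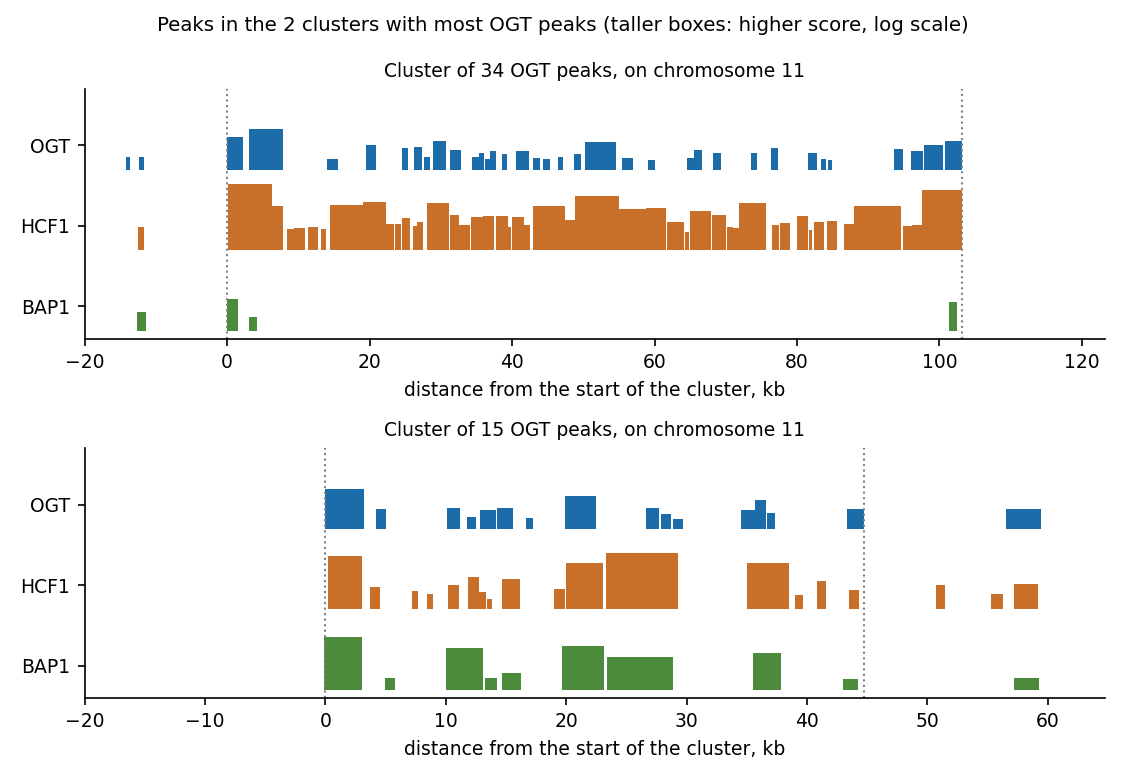
Peaks of the OGT, HCF1 and BAP1 lists in the clusters with the most OGT peaks (34 and 15, both on chromosome 11), against the distance in kb from the start of the cluster. Each box spans 1 peak, and dotted lines mark the ends of the cluster. Taller boxes have higher scores, on a log scale shared by all lists and both panels. Scores are meant to be compared only within a list. In the upper panel HCF1 covers 90.6% of the span and BAP1 3.90%, at the ends, while in the lower panel the BAP1 peaks meet 14 of 15 OGT peaks.

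A further 11 clusters of at least 5 peaks also had BAP1 on at most 25% of members, and were singled out after their values were seen. The largest was on chromosome 3 from 87311805 to 87334513, with 8 OGT peaks, 6 on HCF1 and 2 on BAP1. The strongest by median score, 398, was on chromosome 5 from 92773783 to 92805215, where HCF1 overlapped 6 of 6 and BAP1 1. On chromosome 11 from 48893933 to 48902562, 5 OGT peaks with a median score of 55.4 all met HCF1 and none met BAP1. On chromosome 9 from 69291072 to 69316006 HCF1 was also rare, at 2 of 5.

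At the scale of 1 Mb the OGT peaks were concentrated in a small part of the genome. Of 2479 windows, 970 (39.1%) held no OGT peak, and the median window held 1 and the mean 4.13. Windows were counted from position 1 of each chromosome, so the empty ones include the stretch before the first peak of any list. Counting that stretch raises the empty share and the ratio of variance to mean given below, and lowers the mean. The 103 windows with 20 or more peaks were 4.15% of windows and held 27.9% of the peaks, and the densest 248 windows held 49.3% (48.3 to 50.3%). The variance of the window counts was 10.9 times their mean. Of these 103 windows, 56 bordered another such window, in 24 runs. The longest was on chromosome 5 from 121000001 to 126000000, with 126 OGT peaks in 5 windows, followed by 4 windows on chromosome 4 from 132000001 to 136000000 with 107. The longest run of windows without OGT, 12 of them, was on chromosome 4 from 20000001 to 32000000 and held 17 HCF1 and 9 BAP1 peaks.

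**Figure D5:**
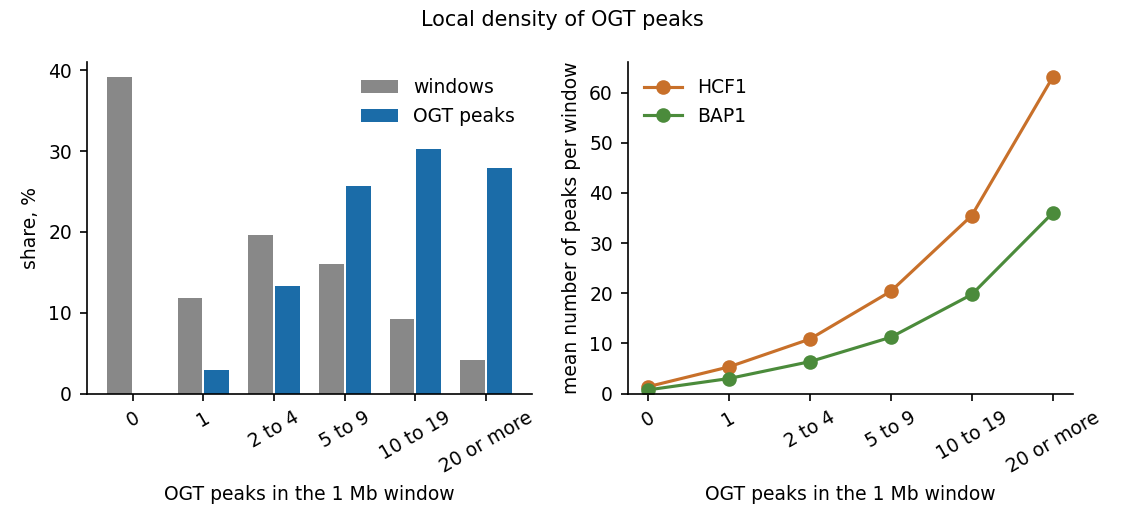
Left, the share of 1 Mb windows and of OGT peaks, in percent, by the number of OGT peaks in the window. Right, the mean number of HCF1 and BAP1 peaks per window in the same classes. Windows with no OGT peak are 39.1% of all and average 1.37 HCF1 peaks, and those with 20 or more hold 27.9% of OGT peaks and average 63.1 HCF1 and 36.0 BAP1 peaks.

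Windows rich in OGT were rich in the other proteins. Windows without OGT averaged 1.37 HCF1 and 0.732 BAP1 peaks. Of these 970 windows, which include the chromosome starts described above, 567 had neither. Those with 20 or more OGT peaks averaged 63.1 and 36.0. Over the 2479 windows the counts of OGT and HCF1 had a rho of 0.91 and those of OGT and BAP1 a rho of 0.89. These are descriptions, since the counts come from the same windows and share their base composition and mappable sequence. In the 103 windows of 20 or more OGT peaks there were a median of 0.744 OGT peaks per BAP1 peak, and OGT outnumbered BAP1 in 10. These windows were chosen for their OGT count, which raises this ratio by selection, so it is given as a description. The highest ratio, 1.65, came from chromosome 19 from 11000001 to 12000000, with 28 OGT, 17 BAP1 and 103 HCF1 peaks.

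The window with most OGT peaks, on chromosome 10 from 80000001 to 81000000, had 72 with a median score of 140, and 65 of them were clustered. OGT peaks covered 10.4% of its bases. The window before it held 57 at a median score of 119. In the major histocompatibility region of chromosome 17, the windows starting at 34000001 and 35000001 held 57 and 54 OGT peaks, with median scores of 139 and 130. Chromosome 2 from 167000001 to 168000000 held 46 with a median of 140. Chromosome 11 from 119000001 to 120000000 also held 46, but they were weaker, with a median of 84.7, and 12 were on BAP1 against 43 on HCF1. It contains the cluster of 34. The other windows among the 10 densest were on chromosome 11 from 70000001 (45 peaks), chromosome 19 from 5000001 (43), chromosome 10 from 127000001 (42) and chromosome 8 from 73000001 (41). In these 4, BAP1 overlapped 36, 36, 30 and 33 of the OGT peaks.

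Peaks in dense windows were slightly stronger and wider than those in sparse ones. The 293 peaks that were the only OGT peak of their window had a median score of 78.3 (quartiles 57.5 and 113) and a median width of 747 bp. The 2860 peaks in windows of 20 or more had medians of 96.0 (64.5 and 171) and 984 bp. The share on HCF1 was 73.4% (67.9 to 78.4%) in the first class and 85.2% (83.8 to 86.5%) in the second, and the share on BAP1 58.7% (52.8 to 64.4%) and 72.7% (71.0 to 74.3%). With centres within 250 bp both differences turned the other way, to -6.31 percentage points for HCF1 (normal-approximation interval -12.3 to -0.30) and -3.31 for BAP1 (-9.17 to 2.54). The shares by 1 bp were not split by width here, and in the width classes above wider OGT peaks met both proteins more often. Of the highest score decile, 40.1% (37.1 to 43.2%) lay in windows of 20 or more OGT peaks, and of the lowest 23.5% (21.0 to 26.3%).

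High scores occurred both with and without near neighbours. Of the 10 highest-scoring OGT peaks, 6 were in clusters and 4 were solitary, and 8 lay in windows of 20 or more OGT peaks. Over all OGT peaks 50.4% were clustered and 27.9% lay in such windows. Of the 4 solitary peaks, 2 had another OGT peak 10.5 and 20.2 kb away. The peak with the second highest score, 2979.91, was on chromosome 2 from 164879370 to 164882903 and 20.2 kb from its nearest neighbour. The third, at 2825.79 on chromosome 17 from 35398763 to 35400826, belonged to a cluster of 5. The first, at 3100 on chromosome 7, belonged to a cluster of 4 and is among the widest described above. Of the rest, 2 were remote and are described next, and 5 lay on chromosomes 17, 7, 17, 11 and 10, at scores from 2678.47 down to 2371.06, with other OGT peaks between 0.075 and 10.5 kb away.

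A small set of OGT peaks was both strong and remote. More than 100 kb separated 1273 peaks (12.4%) from any other OGT peak, and more than 1 Mb separated 93 (0.909%). The strongest of the remote peaks was on chromosome 17 from 39979834 to 39985899. It had a score of 2819.58, a width of 6066 bp and no other OGT peak within 2572 kb. As general background, mm9 places a copy of the 45S ribosomal RNA transcript there, a sequence repeated many times in the genome. No filter for repeated sequence was applied, and the part of copy number was not tested. The next, on chromosome 10 from 5743719 to 5745853, scored 2342.67, lay 120 kb from the nearest OGT peak and met HCF1 but not BAP1. After the compact peak on chromosome 12 described above came chromosome 5 from 7979950 to 7981794, at a score of 2076.13 and 3019 kb from its neighbour, with both HCF1 and BAP1. The fifth, on chromosome 19 from 45250172 to 45251427, scored 1214.29 and had HCF1 only. All 5 overlapped HCF1 and 2 overlapped BAP1, where the shares over all OGT peaks were 82.2% and 66.3%.

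Chromosomes differed in density more than in the kind of peak they carried. Chromosome 11 had 8.33 OGT peaks per Mb between the outermost peaks of any list, followed by 6.56 on chromosome 19 and 6.33 on chromosome 17, and chromosome 18 had 2.50. The clustered share ran from 33.8% on chromosome 18 to 59.3% on chromosome 11, and the median gap from 78.7 to 18.1 kb on the same chromosomes. Median scores stayed between 81.1 and 92.7, and median widths between 826 and 997 bp.

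Set beside the other lists, how clustered OGT appeared depended on list length. At their own lengths the clustered share was 50.4% for OGT, 71.7% (71.2 to 72.2%) for the 30912 HCF1 peaks and 48.2% (47.5 to 49.0%) for the 17389 BAP1 peaks. With each list limited to its 10236 highest-scoring peaks, the share was 41.3% (40.3 to 42.3%) for HCF1 and 35.6% (34.7 to 36.6%) for BAP1, both below OGT. The median gaps were then 41.2 and 44.3 kb against 30.2 kb. Of these equal lists the densest 248 windows held 49.3% for OGT, 45.3% for HCF1 and 45.5% for BAP1. The equal lists reach down to scores of 50 for OGT, 175 for HCF1 and 95.3 for BAP1, and the lists therefore differ in how far each was shortened. With a score of at least 100 in every list, the share for OGT was 19.6 percentage points below that of HCF1. Its difference from BAP1 was then 1.07 points, with a normal-approximation interval of -0.65 to 2.79 that includes 0. The score is not defined and the depth is unknown, so a cut at 100 need not be equally strict in each list. With 1 library each, these are differences between lists and were not tested as differences between proteins.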

How the data were processed

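Peak lists of 1 OGT, 1 HCF1 and 1 BAP1 ChIP-seq library were used, and the input library was not analysed on its own. Per the labels' protocols, fragments of 175 to 225 bp were size-selected and amplified for 18 cycles. Per the submitters' processing notes, GSNAP and MACS 1.4 were used with build mm9, and their settings are not stated there. The authors deposited 1 score and 1 interval for each peak, called on single libraries against an input that the file names mention. OGT peak numbers run from 1 to 10337 without a break. Starts were read as counted from 0 and are printed counted from 1.

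From these, widths, gaps, clusters (gaps of at most 10 kb) and counts of centres in 1 Mb windows were computed with Python 3.11.15, pandas 2.3.3 and scipy 1.17.1, after a check on simulated intervals. Overlap needs 1 bp. The depth is unknown, so intervals (95%, Clopper-Pearson) cover counting error only, and PCR copies are not independent molecules. No mm9 genome or annotation was used, coordinates were not converted, no gene was assigned to peaks and no sequence is shown, so the planned placement relative to genes was not run. The peaks described, and the lists and classes, were chosen with earlier results of these data known. Regions were named by rule: the 10 highest-scoring peaks, the 5 widest, the 5 weakest of at least 2000 bp, the 5 strongest under 1000 bp and the 5 strongest more than 100 kb from another, the 10 clusters and 10 windows with most peaks, and the longest gap. Alternatives were a score of at least 100, joining peaks at most 1 kb apart, leaving out peaks over 5 kb or the top scores, cluster distances of 5 and 20 kb or between centres, other overlap rules, other windows and lists of equal length.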

Additional observations from a re-analysis of the deposited data

Results flagged for a closer look

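Outside the chromosomes described, the OGT list held 75 peaks on X, with a median score of 71.5 and a highest score of 1453.92. It also held 25 on random or unplaced sequences, with a median score of 87.2 and a highest score of 959.65. Both counts stand out because these peaks enter no comparison above.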

How the results depend on the processing

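Of 78 values recomputed under alternatives, 45 stayed within counting error (or within 1.5 times, for counts of clusters and variance to mean), 26 moved and 7 changed sign; the causes were not tested. With a score of at least 100, rho of width and score was 0.47, the median gap 74.1 kb, the clustered share 35.6%, the clusters of at least 5 peaks 29, and the clustered minus solitary score 16.2. The HCF1 difference between clustered and solitary peaks was then 7.80 percentage points, variance to mean 6.69, the share in the densest windows 56.3%, the score difference between dense and sparse windows 32.5, and OGT minus HCF1 in clustered share -19.6 points. For the score difference of 32.5 the approximate interval, -0.03 to 65.0, includes 0. With peaks at most 1 kb apart joined, the median gap was 42.2 kb, the clustered share 37.5%, the larger clusters 65, the HCF1 and BAP1 differences 4.72 and 1.27 points, and the densest-window share 47.4%. Without peaks over 5 kb, those differences were 4.61 and 1.65 points. Cluster distances of 5 and 20 kb gave clustered shares of 39.9% and 62.4% and 87 and 324 larger clusters, and centres at most 10 kb apart gave 48.4%. Windows of 500 kb gave a densest-window share of 56.6% and a score difference of 29.8. For clustered minus solitary overlap, reciprocal overlap of 50% gave -5.12 (HCF1) and -5.87 points (BAP1), and centres within 250 bp -8.62 and -9.84. For dense minus sparse windows, centres gave -6.31 and -3.31 points. With equal lists, OGT minus HCF1 in clustered share was 9.11 points and OGT minus BAP1 14.8. Leaving out the largest cluster, an alternative chosen after seeing the data, moved none of these summary values beyond counting error, but took the BAP1 share in clusters of 10 or more from 53.4% to 67.0%. The BAP1 difference between clustered and solitary peaks has an interval that reaches 0 with peaks joined (-0.74 to 3.29 points) and without peaks over 5 kb (-0.22 to 3.51). Gaps and clusters rest on the called list, whose depth is unknown. No paired analysis was possible because no group holds more than 1 library.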
